A study of Rattus norvegicus with 11 samples.

Results

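The established cells of the conversion from rat embryonic stem cells to hypoblast stem cells, taken at days 17 and 32, were compared by the culture in which the parental stem cells had been kept. These arrays were chosen by their labelled day alone and numbered 6 of the 11 in the series. They comprised 1 array of the feeder arm and 2 of the feeder-free arm on each day. Every sample came from the rat embryonic stem cell line DAc2, a single line with no genetic modification named in the labels, and gave total RNA for a whole-transcript Affymetrix array. Stem cells of the feeder arm had grown over mouse embryonic fibroblasts in N2B27 with 3 µM of the GSK3 inhibitor CHIR99021 and 0.5 µM of the MEK inhibitor PD0325901. Those of the feeder-free arm had grown on laminin in the same base and the same amount of CHIR99021, but with PD0325901 at 2 µM and with human BMP4 (5 ng/mL). Both arms were then converted in the same medium, made for multipotent adult progenitor cells of the rat, which held 2% fetal bovine serum and the factors PDGF, EGF and LIF. Whether fibroblasts remained during the conversion is not given in the labels. Day 0 and day 7 arrays (2 and 3 in number) serve only to show which differences preceded the established state.

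The hypoblast, or primitive endoderm, is the layer of the blastocyst that lies beneath the epiblast and gives rise to the visceral and parietal endoderm of the yolk sac. GATA and SOX17 transcription factors specify it, FGF signalling through MEK and ERK favours it over the epiblast, and PDGFRA marks it. Parietal endoderm is known for secreting a thick basement membrane of type IV collagen and laminin, and visceral endoderm for endocytic uptake of maternal protein.

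Values are log2 expression values as deposited, and a difference is feeder minus feeder-free, so a positive value means higher expression in cells that started on feeders. Each difference is the culture term of a limma fit over the 6 arrays with day as a second term, given with its standard error (SE, 2 arrays against 4). A gene was called at a Benjamini-Hochberg adjusted p under 0.05 over 14506 genes. Olfactory and vomeronasal receptor genes, 1240 of them, served as a guide to background. Their values in the 6 arrays had a median of 6.40, with 95% of the values under 8.14. Differences that involve values under that level are compressed. All 11 arrays shared a median of 8.97. The feeder-free pairs correlated at 0.998 on both days across genes, and the 2 feeder arrays at 0.995. With 2 arrays against 4, an exact two-sided permutation test of any single gene cannot fall below p = 0.0667, so every call rests on the spread that limma shares among genes.

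The hypoblast markers lay above background in all 6 arrays. The mean of 8 hypoblast markers was 13.53 to 13.62 in the feeder arrays and 13.68 to 13.83 in the feeder-free arrays, against 9.04 and 9.34 in the day 0 stem cells. The pluripotency marker mean was 9.46 to 9.70 and 9.86 to 10.20, against 12.76 and 13.61 at day 0. Markers of mouse fibroblasts, whose RNA may also bind to a rat array, averaged 8.16 to 8.20 in the feeder arrays of days 17 and 32 and 8.12 to 8.19 in the feeder-free ones. In the feeder arm that mean had been 10.19 at day 0 and 8.99 at day 7. Of these 9 markers, 1 (Prrx1) was called higher in the feeder arm, and 3 lay under the background level in all 6 arrays. The trophoblast mean overlapped between the arms (9.24 to 9.28 and 9.15 to 9.35).

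The arms differed widely in small steps. In total 5422 genes (37.4%) were called, 2798 higher in the feeder arm (19.3%) and 2624 lower (18.1%). Of the called genes, 51.6% were thus higher, a share that became 39.3% when each array was centred on the median of the genes. The median absolute difference was 0.19 over all genes and 0.13 over the 1240 receptor genes that guide background. Of those receptor genes, 134 (10.8%) were called as well. A difference of at least 1 was reached by 466 called genes (3.21%), 294 higher and 172 lower. The feeder arrays lay outside the range of all 4 feeder-free arrays for 93.3% of the called genes and for 50.9% of all genes. The feeder-free arrays of a day are labelled as biological replicates, whether or not from separate cultures, and no labelling batches are given, so the starting culture cannot be told apart from any other feature shared by the arrays of an arm.

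Many of the larger differences had the same sign before conversion. Among the 466 genes, 411 had the same sign at day 0, as had 70.8% of all genes. A day 0 difference of at least 1 in the same direction was held by 238 of the 466. These were also 238 of the 1064 genes that differed by at least 1 at day 0, of which 494 stood under 0.5 in the established cells. Of the 466 genes, 372 had the same sign on all 4 days, and 280 stayed within 0.5 of their day 0 difference. The 466 were chosen by their values on days 17 and 32, and the share over all genes was not counted for either number. Among all 5422 called genes, 4170 lay within 0.5 of their day 0 difference, so staying this close was common. Across all genes the established difference correlated with that of day 0 at 0.55 and with that of day 7 at 0.475, as a description over genes that share the arrays of each day. A contrast of the established with the day 0 difference, from a fit of 8 group means over all 11 arrays, was called for 1843 genes (12.7%). In 687 called genes it ran in the direction of the established difference (428 higher, 2.95% of all genes, and 259 lower, 1.79%). These genes are called below beyond day 0. With a difference of at least 1 there were 128, of which 85 were higher (0.586%) and 43 lower (0.296%). Leaving out the feeder array of day 17 or that of day 32 leaves 1 in that arm. In both cases part of the 128 dropped out and other genes entered. Each culture had a single array at day 0, whose spread is taken from the pairs of later days.

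**Figure D1:**
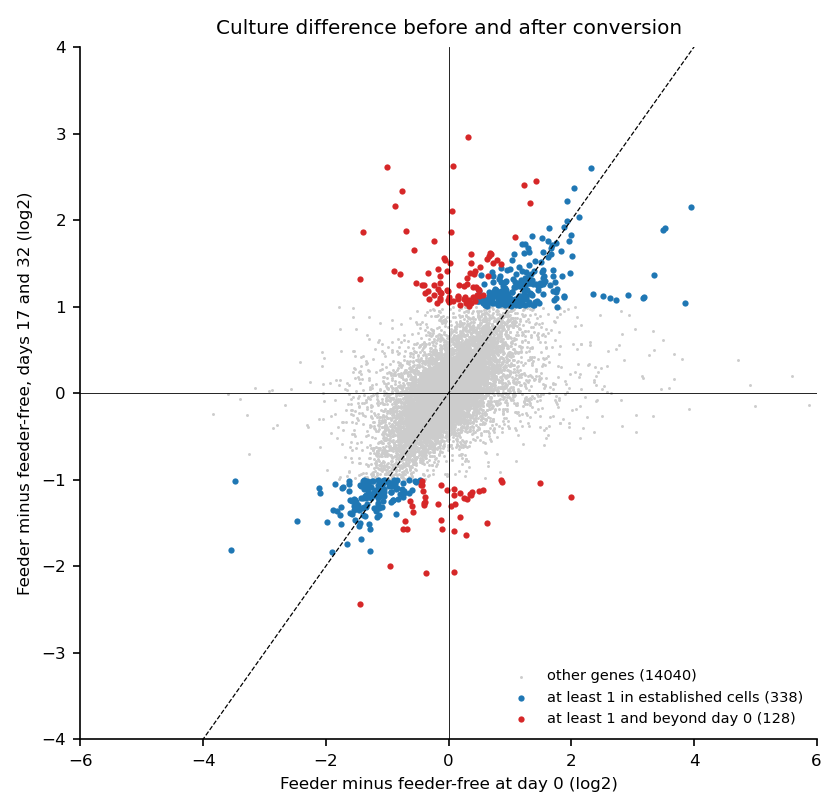
Culture difference (feeder minus feeder-free, log2) at day 0 on the x axis and over days 17 and 32 on the y axis, 1 point per gene. The dashed line marks equal differences, blue points are called genes of at least 1, and red points are the 128 of these that lay beyond day 0. Many blue points run along the dashed line, whereas the red points lie above or below it.

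Several of the largest differences that stayed alike on all days were those of mitochondrial and ribosomal components. Ndufb6, a subunit of respiratory complex I, measured 13.92 (day 17) and 14.17 (day 32) in the feeder arrays. The feeder-free arrays measured 11.63 and 11.42 on day 17 and 11.41 and 11.30 on day 32. The groups did not overlap, and the difference was 2.60 ± 0.11 (SE, adjusted p = 8.56e-06), against 2.33 at day 0 and 2.82 at day 7. Ndufs4, also of complex I, stood at 14.40 and 14.26 against 12.16, 12.08, 11.84 and 11.75, a difference of 2.37 ± 0.08. Ndufc2 (2.03 ± 0.08) and Ndufb7 (1.64 ± 0.07) showed the same order on every day. Outside the respiratory chain, the trafficking gene Trappc4 was higher by 2.22 ± 0.07 and Rnf7, a RING component of cullin ubiquitin ligases, by 1.99 ± 0.08, and their day 0 differences were 1.93 and 1.94.

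Tomm40, the pore of the outer mitochondrial membrane, was the reverse. It read 12.30 and 12.42 in the feeder arrays and 14.13, 14.17, 14.26 and 14.24 in the feeder-free arrays, lower by -1.84 ± 0.07 in the established cells and by -1.90 at day 0. The ribosomal protein gene Rpl22 differed by -1.74 ± 0.07 (day 0, -1.66) and Rps12 by -1.57 ± 0.07 (day 0, -1.28). Several rows of the table bear these 2 ribosomal symbols and gave like values, -1.60 to -1.74 for Rpl22 and -1.47 to -1.57 for Rps12, and such gene families have many near-identical copies, so the assignment of the signal to 1 locus is uncertain. Of 23 ribosomal protein genes 5 were higher and 6 lower, with a median of 0.02, and 0 lay beyond day 0. After centring 2 were higher and 9 lower, with a median of -0.05, and without the feeder array of day 32 the counts were 1 and 5. In the respiratory chain list 11 of 22 were higher and 5 lower (median 0.24), and again 0 lay beyond day 0. The complex I genes named above are not in that list. Its members differed in both directions. Ndufb3, of complex I, was lower by -0.87 ± 0.09 (day 0, -1.07) and Cox7a2, of complex IV, higher by 1.33 ± 0.07 (day 0, 1.54).

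**Figure D2:**
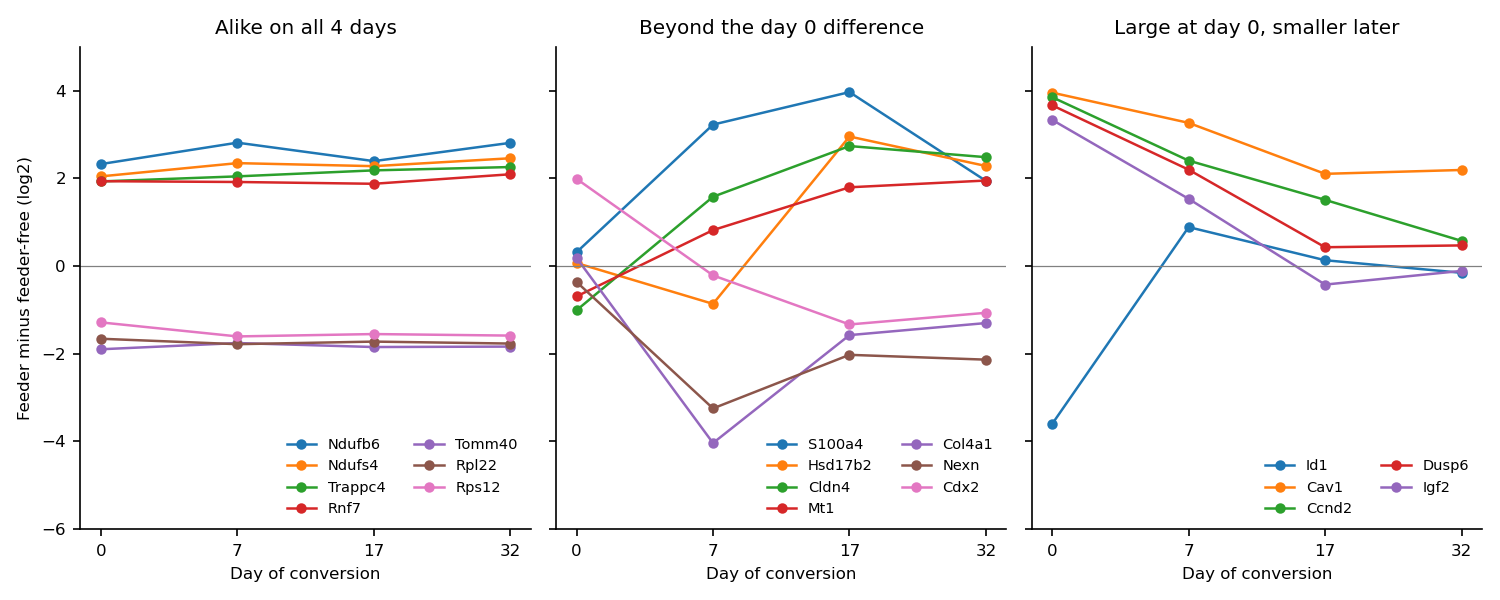
Culture difference (feeder minus feeder-free, log2) on days 0, 7, 17 and 32 for 3 sets of genes, each point from 1 feeder array and the mean of 1 or 2 feeder-free arrays. The genes on the left keep their difference on every day, such as Ndufb6 near 2 to 3 and Tomm40 near -2. Those in the middle gained theirs after day 0, and those on the right started with large differences that became smaller.

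Core regulators of the hypoblast were not called, and some of their partners were lower in the feeder arm. Gata4 measured 14.37 and 14.38 in the feeder arrays and 14.20 to 14.46 in the feeder-free arrays, and its difference of 0.04 ± 0.08 was not called (adjusted p = 0.715). Sox17 differed by -0.06 ± 0.09 (adjusted p = 0.65). Gata6 differed by -0.20 ± 0.07 (adjusted p = 0.065), and it was called after centring of the arrays (-0.26, adjusted p = 0.0165) and after quantile normalization (-0.18, adjusted p = 0.0437). At day 7 the differences of these 3 genes were -2.75, -2.65 and -2.83. Pdgfra, the PDGF receptor that marks the hypoblast, was lower in both feeder arrays, at 13.30 and 13.73 against 13.98, 14.00, 14.31 and 14.25. Its difference was -0.62 ± 0.07 (adjusted p = 0.000359), with -0.01 at day 0 and -3.50 at day 7. Sox7, a relative of Sox17 expressed in parietal endoderm, read 10.88 and 11.0004 against 12.29, 12.15, 12.02 and 11.94. It was lower by -1.16 ± 0.10, again without overlap and from 0.18 at day 0. Foxa2 (-0.38 ± 0.09) and Gata5 (-0.28 ± 0.08) were lower too. Thus 4 of 10 hypoblast regulators were called lower (40%, against 18.1% of all genes). None was called higher, against 19.3% of all genes, and the median was -0.24. The share called in either direction was near that of all genes (37.4%). The calls of Gata5 and Foxa2 were lost without the feeder array of day 17 (adjusted p = 0.131 for both). The call of Gata5 was also lost without the feeder array of day 32 (adjusted p = 0.0862) and without 3 of the feeder-free arrays (adjusted p 0.0501 to 0.055).

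Several genes of the parietal endoderm were lower in cells that started on feeders. Col4a1, a chain of type IV collagen, read 13.40 and 13.42 in the feeder arrays and 14.95, 14.98, 14.74 and 14.71 in the feeder-free arrays. Both feeder arrays lay under all the others, and the difference of -1.44 ± 0.08 (adjusted p = 1.99e-05) compares with 0.19 at day 0 and -4.04 at day 7. Plat, tissue plasminogen activator, was lower by -0.93 ± 0.10, at 9.69 and 9.15 against 10.22 to 10.47. Of 14 parietal endoderm genes, 9 were called lower (64.3%) and 0 higher, with a median of -0.30 against -0.02 over all genes, and 6 lay beyond day 0. The other 7 differed by -0.25 (Pth1r, a parathyroid hormone receptor) to -0.65 (the retinol receptor Stra6). Without the feeder array of day 17 the count of lower genes fell to 2, Col4a1 and Plat, and the median became -0.19. Of 8 basement membrane genes 3 were lower (Col4a1, Nid2 and Sparc) and 1, Lamb2, was higher.

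Several enzymes that modify collagen were lower as well. P3h2, a prolyl 3-hydroxylase of basement membrane collagen, measured 12.55 and 12.92 against 13.94, 14.02, 14.12 and 14.01, a difference of -1.29 ± 0.09 that was 0.11 at day 0 and -4.27 at day 7. The prolyl 4-hydroxylase P4ha1 differed by -0.61 ± 0.08, the lysyl hydroxylase Plod2 by -0.63 ± 0.08 and the lysyl oxidase Loxl2 by -0.72 ± 0.10. Of 15 collagen processing genes 5 were lower (33.3%) and 1 higher (6.67%), against 18.1% and 19.3% of all genes. The share called in either direction was near that of all genes (37.4%). Nid2, nidogen 2 of the basement membrane, was lower by -0.53 ± 0.08 and fibronectin, Fn1, by -0.79 ± 0.07, although the arms' Fn1 values overlapped across days. Lamb2, the laminin beta 2 chain, was higher by 0.31 ± 0.07, a call lost without the feeder array of day 17 (adjusted p = 0.076). The laminin genes Lama1 (-0.05) and Lamc1 (-0.22, adjusted p = 0.0545) were not called. Adhesion and contractile genes differed in both directions. Of 19 genes of actin and contraction 5 were higher and 4 lower (1 and 3 without the feeder array of day 32), and of 11 integrins 1 was higher, Itga5, and 1 lower, Itga2. Itga2, an integrin chain that binds collagen, differed by -0.95 ± 0.09. Nexn, the actin-binding nexilin, read 9.82 and 9.46 against 11.80, 11.89, 11.65 and 11.54, a difference of -2.08 ± 0.08, and Mybpc3, a myosin-binding protein, differed by -1.57 ± 0.07. At day 0 they differed by -0.36 and -0.11, and at day 7 by -3.25 and -4.30.

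**Figure D3:**
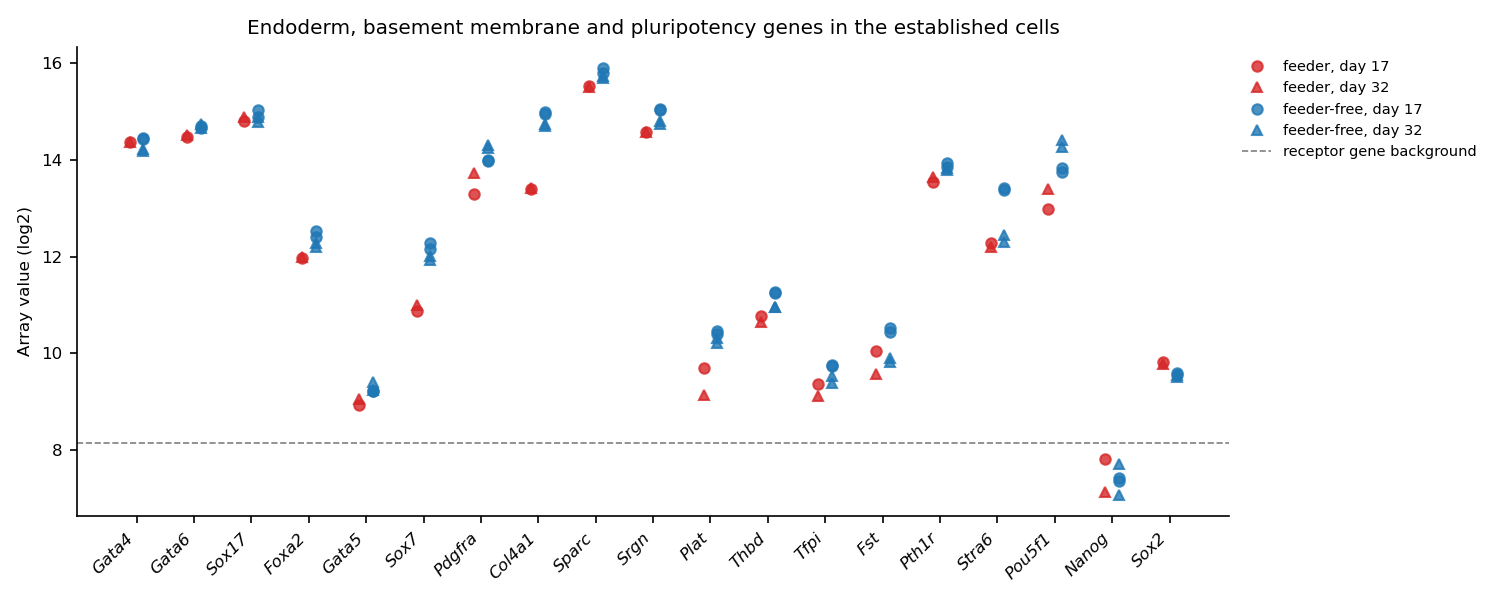
Log2 array values in the 6 established samples for hypoblast and parietal endoderm genes and for 3 pluripotency genes, red for feeder and blue for feeder-free, circles for day 17 and triangles for day 32. Each point is 1 array, and the dashed line is the level below which 95% of receptor gene values lay, 8.14. Gata4 and Sox17 overlap, whereas Sox7, Pdgfra, Col4a1 and Pou5f1 are lower in both feeder arrays.

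Among endocytic and lysosomal genes, 11 of 21 were higher in the feeder arm (52.4%) and 2 lower, with a median of 0.34. The higher count was 7 without the feeder array of day 32, and the median was 0.23 without that of day 17. Ctsc, the lysosomal protease cathepsin C, measured 13.62 and 13.54 against 12.04, 12.12, 12.54 and 12.47, a difference of 1.29 ± 0.11 that had been 0.92 at day 0. The lysosomal membrane gene Lamp2 was higher by 0.67 ± 0.10 and Hexa, a lysosomal hexosaminidase, by 0.49 ± 0.09, while Lrp2, the endocytic receptor megalin, was lower by -0.41 ± 0.08. Of the members 3 lay beyond day 0, Lamp2 among them. Of 22 visceral endoderm genes 7 were higher (4 without the feeder array of day 17) and 2 lower, with a median of 0.05 that turned to -0.02 after centring. Among them Ihh, the hedgehog ligand of visceral endoderm, was higher by 0.84 ± 0.12 and beyond day 0. The Wnt antagonist Dkk1 was higher by 0.83 ± 0.15, or by 0.44 without the feeder array of day 32.

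Several pluripotency genes were lower in the feeder arm. Pou5f1, which encodes OCT4, read 12.98 and 13.39 in the feeder arrays and 13.76, 13.84, 14.41 and 14.27 in the feeder-free arrays. Feeder values were under all feeder-free ones, and the difference of -0.88 ± 0.08 (adjusted p = 9.67e-05) was close to that of day 0, -0.86. Dppa3, a germline and early embryo gene, was lower by -1.32 ± 0.10 (day 0, -1.09), Gdf3, a TGF-beta ligand near background in the feeder arrays, by -1.15 ± 0.15 (day 0, -0.72) and Klf2 by -0.997 ± 0.09 (day 0, -1.78). At day 7 these 4 genes had the opposite sign, with differences of 0.29 for Pou5f1, 0.62 for Dppa3, 2.21 for Gdf3 and 0.88 for Klf2. Of 16 naive pluripotency genes 9 were lower (56.2%) and 2 higher, with a median of -0.33 a day 0 median of -0.72 and a day 7 median of 0.75, and 5 were lower with 0 higher without the feeder array of day 17. Klf4, counted as lower by its brighter row, has 2 rows that differed in sign (-0.50 and 0.66). Nanog lay under the background level in all 6 arrays, at 7.08 to 7.82. Sox2 was slightly higher, by 0.25 ± 0.07 (adjusted p = 0.025), and that call was lost after centring (adjusted p = 0.0559) and in 5 of the 6 fits that left out 1 array, both feeder arrays included (0.24 and 0.25). The de novo methyltransferase gene Dnmt3a differed by -0.99 ± 0.08, as at day 0 (-0.91).

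**Figure D4:**
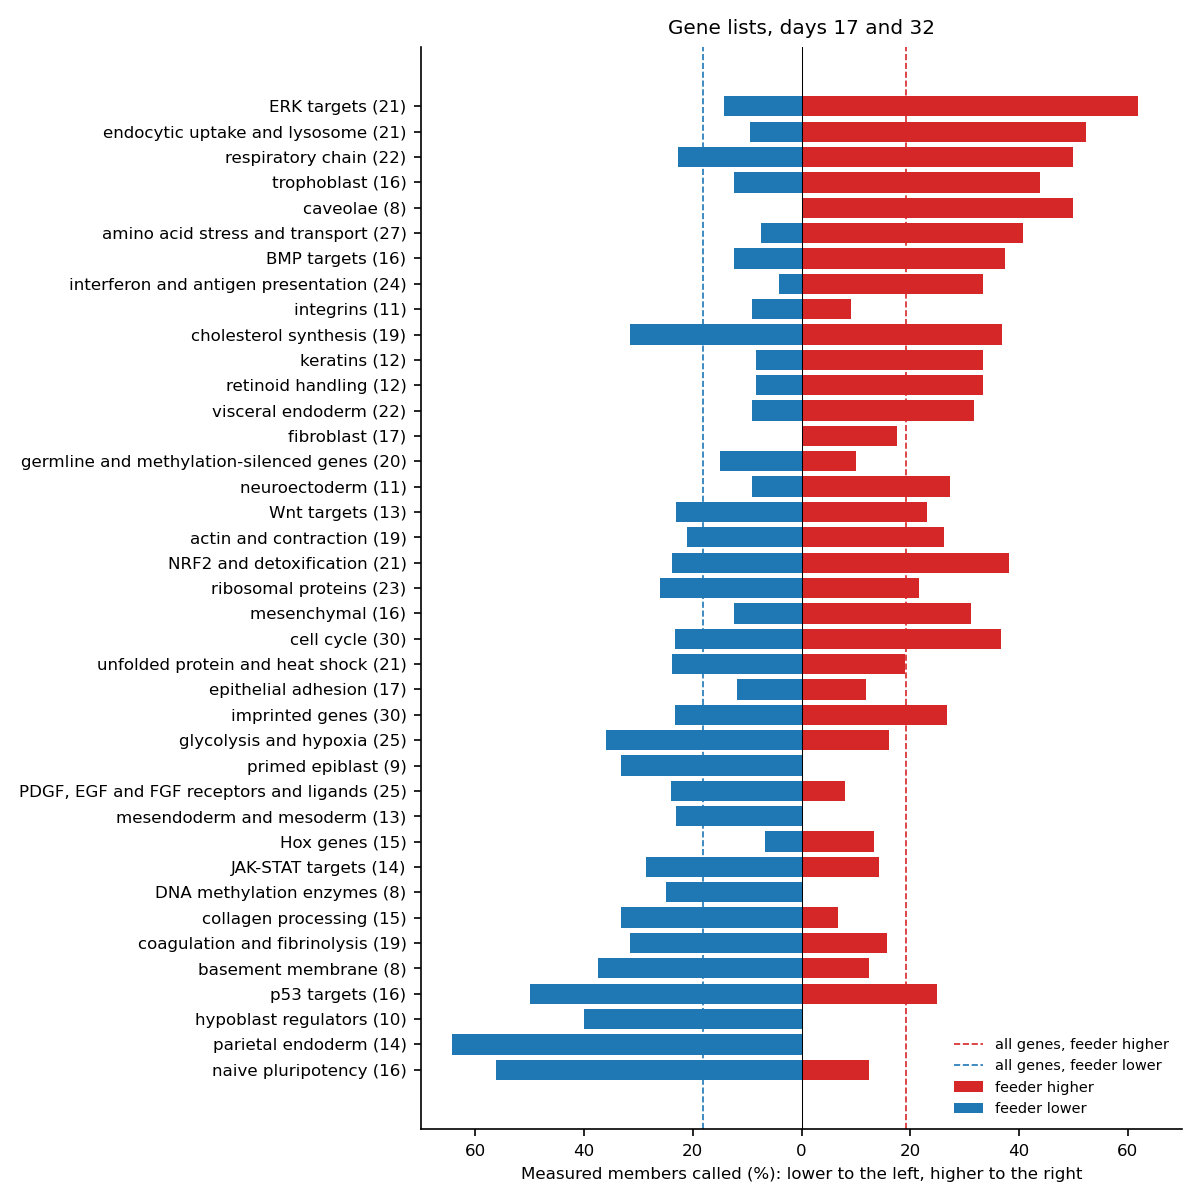
Share of the measured members of each of 39 gene lists that was called lower (left, blue) or higher (right, red) in the feeder arm, with the number measured in brackets and the lists ordered by their median difference. Dashed lines give the same shares over all genes, 18.1% lower and 19.3% higher. Parietal endoderm and naive pluripotency lists exceed the lower line, and ERK target and endocytic lists exceed the higher line.

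ERK target genes are induced through MEK, which PD0325901 inhibits. Of 21 members 13 were higher (61.9%) and 3 lower (Fos, Ier2 and Phlda1), with a median of 0.48 against a day 0 median of 0.42. The median was 0.33 without the feeder array of day 17. Etv5, an ETS factor, read 9.74 and 9.64 against 8.65, 8.61, 8.44 and 8.14, a difference of 1.23 ± 0.10 that was 0.40 at day 0. Egr1, an immediate early gene, was higher by 0.95 ± 0.10 and Myc by 0.99 ± 0.09. The day 0 difference of Myc was -1.56. All 3 lay beyond day 0 and 1 further member did. Dusp6 and Etv4 had far larger differences at day 0, 3.67 and 3.49, than in the established cells, where they were 0.45 ± 0.07 and 0.61 ± 0.13. The Dusp6 values of the arms overlapped across days. Spry1, a feedback inhibitor of receptor tyrosine kinases, went from 2.06 to 0.77 ± 0.10. Without the feeder array of day 17 the difference of Etv4 was 0.31 and its call was lost (adjusted p = 0.066). The ligand Pdgfa was higher by 1.04 ± 0.13 and beyond day 0, opposite in sign to its receptor gene Pdgfra.

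Among BMP targets, 6 of 16 were higher (37.5%) and 2 lower (12.5%), against 19.3% and 18.1% of all genes. Id1, an inhibitor of DNA binding that BMP induces, stood at -3.60 at day 0, when the feeder-free medium held BMP4. In the established cells it read 11.32 and 10.89 in the feeder arm against 11.18, 11.19, 11.04 and 11.05, so that the arms overlapped. Its difference of -0.01 ± 0.09 was not called (adjusted p = 0.948). Id2 changed side, from -1.79 at day 0 to 0.99 ± 0.10, and Bambi, a decoy receptor, from -1.13 to 0.61 ± 0.08. The ligand gene Bmp4 read 9.02 and 8.82 in the feeder arrays and 10.17, 10.05, 10.06 and 10.10 in the feeder-free ones. Its difference of -1.17 ± 0.08, with no overlap, compares with 0.35 at day 0. Cdx2, a trophoblast and gut factor, also changed side, from 1.99 at day 0 to -1.20 ± 0.09, with 8.56 and 8.81 against 9.82 to 9.94.

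The following genes were among those with the largest differences beyond day 0. S100a4, a calcium-binding protein of motile cells, read 11.10 on day 17 and 8.99 on day 32 in the feeder arm and 7.00 to 7.21, under background, in the feeder-free arrays. The difference of 2.96 ± 0.36 (adjusted p = 0.000398) was 0.32 at day 0 and became 1.95 without the feeder array of day 17. Hsd17b2, which oxidises sex steroids, read 12.34 and 11.87 against 9.27, 9.50, 9.70 and 9.47, a difference of 2.62 ± 0.15 from 0.07 at day 0. The tight junction gene Cldn4 read 12.43 and 11.86 against 9.60, 9.80, 9.41 and 9.33, a difference of 2.61 ± 0.09 that was -1.01 at day 0. Krt19, a keratin of simple epithelia, was higher by 1.38 ± 0.08 (day 0, -0.79) and Mal2, of apical transport, by 1.41 ± 0.08. Epcam, an epithelial adhesion molecule, was lower by -0.48 ± 0.09, and over 17 epithelial adhesion genes 2 were higher and 2 lower, each 11.8%, a smaller share than over all genes. Plet1 (2.34 ± 0.12) and Cited1 (2.16 ± 0.13) are known from trophoblast, and their day 0 differences were -0.75 and -0.87. Of 16 trophoblast genes 7 were higher (43.8%) and 2 lower (12.5%), against 19.3% and 18.1% of all genes. The lower genes were Cdx2 and Prl7a3, the latter at background and not called without the feeder array of day 32. After centring 5 members were higher and 3 lower, and the higher call of Tfap2c was lost (0.39, adjusted p = 0.0795). Without the feeder array of day 17 the differences of Tfap2c and Gata2 were 0.11 and 0.37.

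Rdh10, which makes retinaldehyde, read 13.50 and 12.61 against 11.84, 11.90, 10.67 and 10.36, a difference of 1.86 ± 0.13 from 0.04 at day 0. Cyp26a1, which degrades retinoic acid and is induced by it, was higher by 1.18 ± 0.15, from -0.33 at day 0. Of 12 retinoid genes 4 were higher (2 without the feeder array of day 17) and 1, Stra6, lower, a called share near that of all genes (37.4%), with a median of 0.07. Aqp8, a water channel, differed by 1.07 at day 17 and 3.14 at day 32 (2.11 ± 0.37 over both). Among genes beyond day 0 on the lower side, the peptide hormone gene Pyy differed by -2.07 ± 0.09, Ehd3, of endosome recycling, by -2.44 ± 0.14, Akr1b8, an aldo-keto reductase, by -1.50 ± 0.12 and the imprinted gene Ndn by -1.22 ± 0.15. Their day 0 differences were 0.08, -1.44, 0.63 and 0.29. At day 7 Ehd3 already differed by -2.28, and Akr1b8 by -3.16, more than in the established cells.

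**Figure D5:**
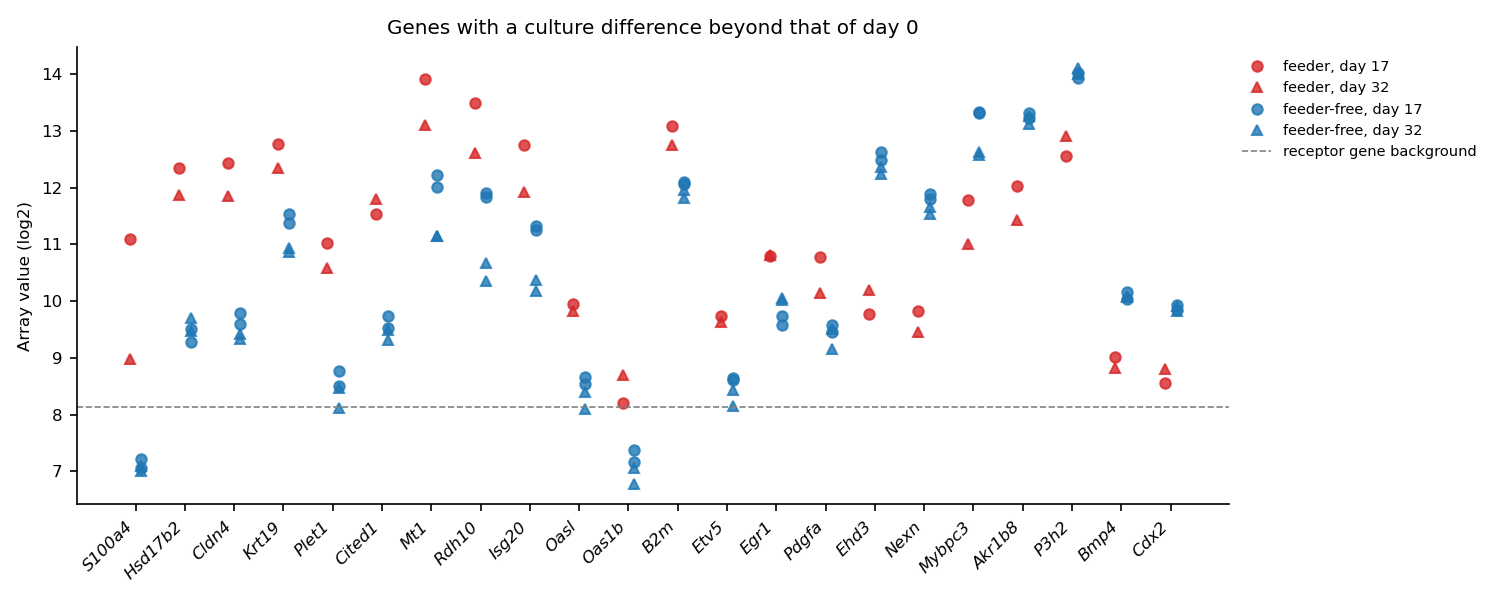
Log2 array values in the 6 established samples for 22 genes whose culture difference lay beyond that of day 0, red for feeder and blue for feeder-free, circles for day 17 and triangles for day 32. Each point is 1 array and the dashed line is the receptor gene background of 8.14. For each gene both feeder arrays lie outside the range of the 4 feeder-free arrays, above it from S100a4 to Pdgfa and below it from Ehd3 to Cdx2.

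Several interferon-inducible genes were higher in the feeder arm. Isg20, an exonuclease gene, read 12.76 and 11.92 against 11.33, 11.26, 10.37 and 10.18, a difference of 1.55 ± 0.09 (day 0, 0.63). Oasl and Oas1b, of the oligoadenylate synthetase family, were higher by 1.46 ± 0.10 and 1.35 ± 0.18, and Ifit1 by 1.27 ± 0.11. The feeder-free values of Oas1b and Ifit1 lay under background. B2m, the light chain of MHC class I, read 13.10 and 12.75 against 11.82 to 12.10, a difference of 0.94 ± 0.08 from 0.26 at day 0. The feeder arrays were above all feeder-free arrays for each of these genes. Of 24 interferon and antigen presentation genes 8 were higher (33.3%, against 19.3% of all genes), and 5 of the 8 lay beyond day 0. The peptide transporter gene Tap1, 1 member (4.17%, against 18.1% of all genes), was lower by -1.13 ± 0.14. The share of the list called in either direction was near that of all genes (37.4%). After centring 6 were higher and 2 lower. Oas1a and Oas1b are close relatives whose signals an array may not separate.

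The promoters of 3 of these genes are shown because they carry the core of the element that interferon-activated factors bind, a GAAA followed by any 2 bases and another GAAA, searched on both strands in the 250 bases before the RefSeq start (GRCr8). Capitals mark the matches. They lie at chr1:142239809-142240058 on the plus strand (Isg20), chr12:41395853-41396102 on the minus strand (Oas1b) and chr3:129549080-129549329 on the plus strand (B2m).
Isg20: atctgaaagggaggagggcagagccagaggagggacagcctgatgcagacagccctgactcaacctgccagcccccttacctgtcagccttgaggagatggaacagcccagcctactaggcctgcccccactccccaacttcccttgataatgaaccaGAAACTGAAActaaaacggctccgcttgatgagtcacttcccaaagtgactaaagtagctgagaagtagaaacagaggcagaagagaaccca
Oas1b: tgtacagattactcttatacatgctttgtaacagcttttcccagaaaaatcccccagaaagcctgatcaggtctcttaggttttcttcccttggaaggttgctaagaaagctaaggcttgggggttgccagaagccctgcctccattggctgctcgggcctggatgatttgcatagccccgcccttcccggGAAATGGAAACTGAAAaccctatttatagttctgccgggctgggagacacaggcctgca
B2m: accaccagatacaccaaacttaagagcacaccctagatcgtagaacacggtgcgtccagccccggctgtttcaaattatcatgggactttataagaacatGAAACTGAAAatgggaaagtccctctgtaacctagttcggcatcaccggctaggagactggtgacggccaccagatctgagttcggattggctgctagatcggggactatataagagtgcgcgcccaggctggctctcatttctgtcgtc
Oas1b holds 2 overlapping matches and the others 1 each. A match occurred in 3.41% of 33465 rat promoters of that length. Of the 24 list members 19 had a promoter in the table and 11 of these a match. Among the 8 that were higher, 6 had a promoter and 3 a match.

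Metallothionein genes, whose products bind zinc and copper, were higher in the feeder arm too. Mt1 read 13.92 and 13.10 against 12.22, 12.02, 11.15 and 11.15, a difference of 1.88 ± 0.09 (adjusted p = 9.76e-06) that had been -0.69 at day 0 and 0.82 at day 7. A second row for Mt1 gave 1.95. Mt2A was higher by 0.67 ± 0.09, although its feeder array of day 32 (14.05) lay within the feeder-free range of 13.19 to 14.36. The Mt1 promoter lies at chr19:10832976-10833225 on the minus strand of GRCr8 by RefSeq. It holds 7 matches on either strand (capitals) to TGCNCNC, a pattern looser than the core of the metal response element. A match is therefore not always that core.
Mt1: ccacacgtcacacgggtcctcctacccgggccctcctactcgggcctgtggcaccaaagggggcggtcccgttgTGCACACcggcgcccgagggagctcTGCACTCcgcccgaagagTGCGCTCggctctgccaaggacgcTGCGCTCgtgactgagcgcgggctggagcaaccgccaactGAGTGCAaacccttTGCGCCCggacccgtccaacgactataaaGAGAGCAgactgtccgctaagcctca
That short motif occurred in 43.4% of the promoters, and the Mt2A promoter holds 5 matches.

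Differences that were large at day 0 and smaller in the established cells included growth genes. The contrast with day 7 was called for 3503 genes (24.1%), and 54.2% of these were higher, or 40.5% after centring. Cav1, the caveola coat gene, went from 3.96 at day 0 to 2.15 ± 0.07, at 11.78 and 10.54 against 9.64, 9.70, 8.36 and 8.33, with both feeder arrays above all feeder-free ones. The cyclin Ccnd2 went from 3.85 to 1.04 ± 0.19, and to 0.58 without the feeder array of day 17. The growth factor gene Igf2 went from 3.34 to -0.27 ± 0.10 (adjusted p = 0.064). It was called lower after centring (-0.33, adjusted p = 0.033) and after quantile normalization (-0.32, adjusted p = 0.0363). Vim, Bgn and Postn, abundant in fibroblasts, stood at 5.88, 5.599 and 4.99 at day 0, when the feeder array also had the highest fibroblast marker mean, and at -0.13 ± 0.07, 0.19 ± 0.14 and -0.15 ± 0.09 in the established cells, where none of these 3 was called. After centring Vim was called lower (-0.20, adjusted p = 0.0445). Over 17 fibroblast genes the median went from 1.07 to 0.04 (-0.02 after centring) and 3 were called higher (1 after centring). Of these, Prrx1 read 9.42 in the feeder array of day 17 and 8.58 in that of day 32, where the feeder-free arrays read 8.42 to 8.71, and the call was lost without the former (adjusted p = 0.63) and without 3 of the feeder-free arrays. The part of residual fibroblasts in any difference was not tested.

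Across genes the differences of the 2 days correlated at 0.821. Their contrast was called for 62 genes (0.427%), 24 larger and 38 smaller at day 32, with 1508 at an unadjusted p under 0.05. It was called for 0 genes after quantile normalization, after centring, or without either feeder-free array of day 32, and for 313 and 310 without feeder-free replicate 1 or 2 of day 17. Only the feeder-free pairs supply its spread, with 2 residual degrees of freedom. The signed difference rose most from day 17 to day 32 for Aqp8 (2.07), the TGF-beta co-receptor gene Tgfbr3 (1.65) and the sulfate donor enzyme gene Papss2 (1.60). For Papss2 the gap closed, from -1.48 at day 17 to 0.12 at day 32. Tgfbr3 read 11.01 in both feeder arrays and 11.01 and 11.04 in the feeder-free arrays of day 17, then 9.39 and 9.38 on day 32, so its gap at day 32 came from the feeder-free side. The signed difference fell most for Ass1, of arginine synthesis (-2.32), S100a4 (-2.03) and Snai2, a mesenchymal transcription factor (-1.89). Snai2 read 10.36 and then 8.79 in the feeder arm against 8.26 to 8.65. Its difference over both days, 1.13 ± 0.34, was 0.19 without the feeder array of day 17, and its call was then lost.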

How the data were processed

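Total RNA of 11 samples was measured on 1-colour Affymetrix Rat Gene 1.0 ST arrays. The deposited values are log2 expression values, and RMA is named per the submitters' processing notes, with no version or setting. No scanner files or scan dates were used here, and depth has no meaning for arrays, whose number (2 against 4) limits the precision. Samples were grouped by the labelled culture and day. Of 29214 rows, 15310 named 1 gene, 323 several and 13581 none. For the 527 genes with several rows the row with the highest mean over the 11 arrays was taken, which left 14506 genes, of which 14481 matched a RefSeq identifier (GRCr8).

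Differences were fitted with limma 3.58.1 in R 4.3.3 (lmFit and eBayes), with terms for day and culture over 6 arrays (3 residual degrees of freedom). The contrast of day 32 with day 17 added an interaction (2 residual degrees of freedom). Contrasts with days 0 and 7 came from a fit of 8 group means over 11 arrays (3 residual degrees of freedom). P-values were adjusted by Benjamini-Hochberg over all genes, with a threshold of 0.05. The scripts were tested on simulated data. The genes and the 39 gene lists were chosen with earlier results of these data known, so a list is described by counts and medians without a test. Named genes were the 15 largest called differences each way with both feeder arrays beyond the feeder-free arrays of their day, up to 5 called members per list, 7 fixed regulators and the 5 largest each way in the other contrasts. Dusp6, Etv4, Igf2, Isg20, Lama1, Lamc1, Mal2, Mt1, Mt2A, Ndufb7, Oas1a, Oas1b, Pth1r and Spry1 fall outside that rule and were chosen after their values were seen. Alternatives covered normalization, centring, dim genes, rows per gene, the day term, the arrays fitted and leaving out each array. The labels call the feeder-free replicates biological, but do not say whether they, or the feeder arrays of days 17 and 32, came from separate cultures, so p-values measure only the spread between these samples, which may be technical. The difference of replicates 1 and 2 on day 17 correlated with that of day 32 at -0.0991 across genes. With pairs correlated at 0.998, this cannot show whether a replicate number stands for the same culture on both days.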

Additional observations from a re-analysis of the deposited data

Results flagged for a closer look

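The culture difference of days 17 and 32 changed between these days for 62 genes by the limma interaction. It differed from the day 0 difference for 1843 genes and from the day 7 difference for 3503. Between day 17 and day 32 the differences of largest increase were those of Aqp8 (2.07), Tgfbr3 (1.65), Papss2 (1.60), Capn6 (1.51) and Slc15a2 (1.51). Those of largest decrease were Ass1 (-2.32), S100a4 (-2.03), Snai2 (-1.89), Igf1 (-1.62) and Sgk1 (-1.60). Relative to day 0 the established difference stood higher by 3.62 for Cldn4, 3.61 for Cpm, a carboxypeptidase, 3.59 for Id1, 3.32 for Cyp2s1 and 3.26 for Selenop, a selenium carrier. It stood lower for Vim (-6.01), Bgn (-5.41), Postn (-5.14), Trh, the thyrotropin-releasing hormone gene (-4.82), and Thbs1 (-4.33). Relative to day 7 it stood higher for Plet1 (4.86), Prl7a3 (4.36), Adgrf5 (4.26), Mmp1 (4.22) and Cyp17a1 (4.03). It stood lower than at day 7 for Ly6c (-3.86), Thbs1 (-3.83), Hey2 (-3.62), Bgn (-3.55) and Cacng7 (-3.36). A large contrast need not mean a large established difference. From day 7, Cyp17a1 went from -4.18 to -0.15 and Adgrf5 from -4.21 to 0.05, and neither was called in the established cells. From day 0, Cpm went from -3.85 to -0.24 and Cyp2s1 from -3.40 to -0.07. Of the array's rows without a gene symbol, 552 were called with a culture difference of at least 1.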

How the results depend on the processing

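The count of called genes was 5422, and 4000 to 4979 when 1 array was left out. It was 3549 from day 17 alone, 466 with a minimum difference of 1, and 9514 over all rows of the array. With the replicate number as a fixed block it was 5101 and as a random block 7751 (consensus correlation -0.501). Whether the numbers pair the samples is not known. The contrast of day 32 with day 17, called for 62 genes, gave 99 in the fit of 8 groups, 235 without the dimmest 25% of genes, 0 after quantile normalization, 0 after centring, and 0 to 313 when 1 array was left out. The day 0 contrast gave 1467 to 2046 and the day 7 contrast 2852 to 3553 when 1 array was left out. The 128 genes of at least 1 and beyond day 0, an outcome chosen after seeing the data, became 129 to 144 with both feeder arrays kept. Of the 128, 117 to 122 then stayed, and fewer stayed when a feeder array was left out. Of 4808 values of 268 single-gene results under alternatives, 4297 kept direction and side of the threshold, 415 lost the call, 41 gained one, 40 moved without a call and 15 reversed. Without the feeder array of day 32, as with day 17 alone, Adgrf5 was -0.43 and Slc15a2 -0.65, and over the fits that left out 1 array they ran from -0.43 to 0.54 and from -0.65 to 0.85. Without that of day 17, as with day 32 alone, Capn6 was 0.52, in a range of -0.99 to 0.52. Klf4 was 0.0839 as the mean of its rows. In a fit of all 11 arrays with terms for day and culture, Adm was -0.0671, Dkk1 -0.0851, Gata2 -0.29, Krt8 -0.0406, Lefty2 0.77, Lgmn -0.33, Ly6c 0.71 and Myc -0.24. The causes were not tested. Values near background limit what differences of dim genes can show.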

Other observations

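Other genes with a culture difference beyond day 0 had further functions. The neutral amino acid transporter gene Slc7a5 read 13.03 in both feeder arrays against 12.12, 12.07, 11.81 and 11.47, a difference of 1.16 ± 0.13 by limma (SE, 2 arrays against 4) from -0.12 at day 0. The taurine transporter gene Slc6a6 was higher by 2.41 ± 0.16 and Plaur, the urokinase receptor gene, by 1.11 ± 0.07. On the lower side, the glycolytic gene Pfkl read 12.55 and 12.86 against 13.52, 13.58, 13.75 and 13.72, a difference of -0.94 ± 0.07 from -0.03 at day 0. The Wnt antagonist Sfrp1 differed by -1.57 ± 0.07 and Blvra, biliverdin reductase, by -2.002 ± 0.07, and their day 0 differences were -0.74 and -0.96. For each of these 6 genes both feeder arrays lay outside the range of the 4 feeder-free arrays.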
